A study of Rattus norvegicus with 3 samples.

Results

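The 9 genes described here are grouped as tendon genes, though not all are particular to tendon. They encode the matrix proteins Chad, Fmod, Kera, Comp, Thbs4 and Tnn, the membrane protein Tnmd, and the transcription factors Scx and Mkx. They were chosen by symbol, as a set whose levels had been seen to differ between the arrays of the series, and the probe set with the highest mean was taken for each symbol. Of the 9, 7 had a probe set with a single gene symbol, out of 14506 genes in all, and each of the 7 had 1 probe set. Mkx and Thbs4 were not analysed here. Because these same values led to the choice of the genes, all numbers on the 7 genes are a description.

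RNA came from the tibialis anterior muscle of male Wistar rats, 11 weeks old, 8 days after plasmid DNA (150 µg) was electroporated into the muscle. All rats were fed for 3 weeks on a high-fat diet (45% of energy from fat), with electroporation 2 weeks into the diet. The Plin5 group received Plin5 (OXPAT) behind the CMV promoter in a pcDNA3.1 backbone, the Plin2 group received Plin2 (ADRP) behind the CMV promoter in a pENTR backbone, and the empty vector group received pcDNA3.1 without an insert, so that backbone and insert differ together on the Plin2 array. Plin5 and Plin2 encode perilipins, proteins that coat lipid droplets. Each group was 1 array of RNA pooled from 6 rats, without replicates, so no spread between rats was available, no test was run, and a pool cannot show how many of its rats shared a difference. Values are log2 RMA levels (a standard background correction, normalization and probe summary for these arrays), and array medians lay between 6.37 and 6.40. A gene was called dim when its mean over the 3 arrays was below 5.34 (percentile 25 over all genes), and 10879 genes lay above that level.

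Tendon joins muscle to bone and consists mainly of parallel fibrils of type I collagen laid down by tenocytes. Small leucine-rich proteoglycans and related leucine-rich repeat proteins bind these fibrils and set their diameter and spacing, while thrombospondins and tenascins link fibrils, cells and other matrix proteins. Scx and Mkx direct the tenocyte programme in mouse, and Tnmd marks differentiated tenocytes. A dissected muscle carries some tendon, at its ends and inside the belly. How much was taken with each muscle is not stated in the labels, and fewer tenocytes in a pool and less RNA per tenocyte cannot be told apart in bulk RNA.

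Muscle fibre markers were high, as the tissue label implies. All 15 muscle fibre genes listed (such as Myh7, Myh2, Tnnt1 and Pvalb) lay above the dim level on every array. Of the 7 tendon genes, 6 lay above it on every array, whereas Tnn did so on the Plin2 array alone.

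The 250 bases upstream of the annotated start are shown for the 4 tendon genes with the largest differences on the Plin5 array and for Tnn, the tendon gene with the largest difference on the Plin2 array, to show what their promoters share (RefSeq, build GRCr8, 5′ to 3′ on the gene's strand). Capitals mark CANNTG, the E-box core that basic helix-loop-helix factors such as Scx bind, which reads the same on both strands.
Chad (chr10:80008795-80009044, plus strand): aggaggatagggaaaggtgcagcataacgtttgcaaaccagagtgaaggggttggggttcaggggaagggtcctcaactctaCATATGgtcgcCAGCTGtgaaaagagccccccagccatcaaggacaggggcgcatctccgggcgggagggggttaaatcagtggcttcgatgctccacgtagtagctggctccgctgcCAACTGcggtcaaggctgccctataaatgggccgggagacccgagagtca
Fmod (chr13:48045317-48045566, plus strand): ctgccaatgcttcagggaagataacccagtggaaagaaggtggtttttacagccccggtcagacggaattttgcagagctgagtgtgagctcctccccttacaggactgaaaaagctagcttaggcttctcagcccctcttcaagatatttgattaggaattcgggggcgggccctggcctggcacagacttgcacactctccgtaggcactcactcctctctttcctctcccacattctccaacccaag
Kera (chr7:34283850-34284099, plus strand): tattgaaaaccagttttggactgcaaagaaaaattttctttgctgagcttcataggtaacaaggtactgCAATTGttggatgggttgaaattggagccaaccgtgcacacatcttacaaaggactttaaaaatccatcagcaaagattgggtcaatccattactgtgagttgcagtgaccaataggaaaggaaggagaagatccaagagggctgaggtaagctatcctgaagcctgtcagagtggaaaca
Tnmd (chrX:101350182-101350431, plus strand): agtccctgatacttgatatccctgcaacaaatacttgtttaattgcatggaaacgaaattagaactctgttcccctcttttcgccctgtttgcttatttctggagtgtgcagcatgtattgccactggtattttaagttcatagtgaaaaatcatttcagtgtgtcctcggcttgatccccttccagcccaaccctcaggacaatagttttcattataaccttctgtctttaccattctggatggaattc
Tnn (chr13:74919790-74920039, minus strand): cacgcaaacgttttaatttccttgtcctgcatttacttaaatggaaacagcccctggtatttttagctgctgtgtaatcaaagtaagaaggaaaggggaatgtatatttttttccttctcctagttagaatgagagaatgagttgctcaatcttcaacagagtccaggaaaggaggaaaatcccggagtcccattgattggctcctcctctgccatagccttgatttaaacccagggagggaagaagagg
Chad held 3 such words (starting 168, 157 and 50 bases before the start), Kera held 1 (181 bases before it), and Fmod, Tnmd and Tnn held none in this window. Of 33469 rat promoter windows of the same length, 65.5% held at least 1 CANNTG. Chad also had TATAAA, searched on both strands, as did 12.9% of all windows, and the other 4 had no TATAAA. The Egr1 word GCGNGGGCG, searched on both strands, was in none of the 5 windows and in 4.29% of all windows. A match is a run of letters and not a shown site of binding, and no match says nothing of the factor.

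**Figure D1:**
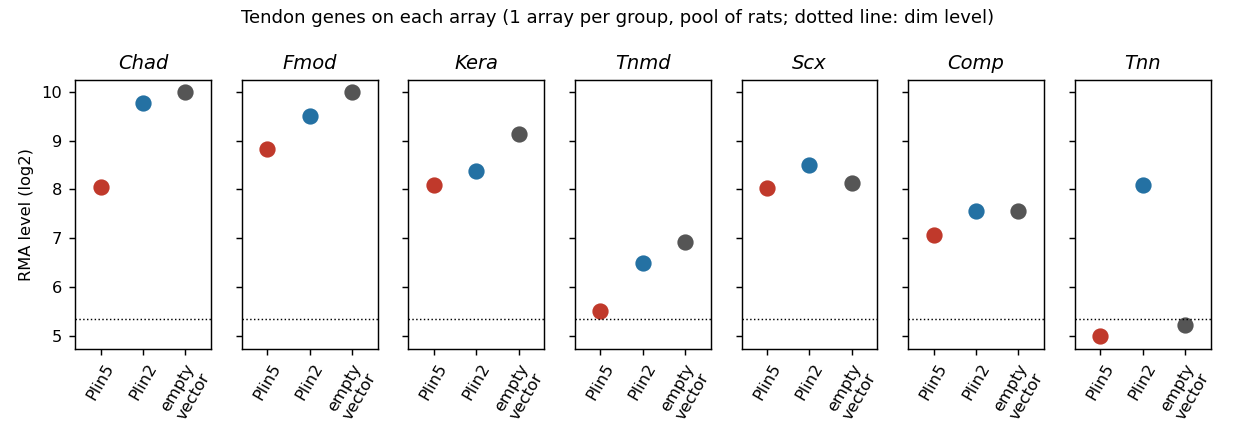
RMA level (log2, vertical axis) of each measured tendon gene on the Plin5, Plin2 and empty vector arrays, 1 point per array; the dotted line is the dim level of 5.34. Every gene has its lowest point on the Plin5 array, Chad, Fmod, Kera and Tnmd have their highest on the empty vector array, and Tnn stands above the line on the Plin2 array alone.

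Against the empty vector, the Plin5 array was lower for all 7 measured tendon genes, and 4 of them were lower by at least 1.5-fold: Chad, Tnmd, Fmod and Kera. Among all 10879 genes 1.42% were lower by that amount. The same 4 were lower by at least 2-fold, as were 0.368% of all genes. No tendon gene was higher by 1.5-fold, as 0.221% of all genes were. The median difference of the 7 genes was -1.03 on the log2 scale, against 0.00 for all genes. With Comp, which was 1.40-fold lower, 5 genes were lower by at least 1.2-fold, as were 5.71% of all genes, while Tnn and Scx differed by less. Tnn lay under the dim level on both arrays of this comparison (5.00 and 5.24), so its direction is uncertain. At any size, 34.0% of all genes were lower.

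Chad encodes chondroadherin, a leucine-rich repeat protein that binds collagen and integrins. Its level was 8.05 on the Plin5 array, 9.76 on the Plin2 array and 9.99 on the empty vector array. The Plin5 array stood apart and the other two lay close together. The Plin5 array was 3.84-fold lower than the empty vector (log2 difference -1.94), the fifth lowest difference among all genes compared, and the Plin2 array was 1.17-fold lower (-0.23).

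Fmod encodes fibromodulin, a proteoglycan that binds type I collagen and regulates fibril assembly. Its level was 8.82 on the Plin5 array, 9.51 on the Plin2 array and 9.99 on the empty vector array, so the Plin2 array fell between the others. The differences from the empty vector were -1.17 for Plin5 (2.26-fold lower) and -0.48 for Plin2 (1.40-fold lower). Kera encodes keratocan, a relative of fibromodulin best known from the cornea. It stood at 8.10 on the Plin5 array, 8.38 on the Plin2 array and 9.13 on the empty vector array. Here both perilipin arrays lay well below the control, with log2 differences of -1.03 for Plin5 (2.04-fold lower) and -0.75 for Plin2 (1.68-fold lower).

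Tnmd encodes tenomodulin, a membrane glycoprotein of mature tenocytes. Its level was 5.52 on the Plin5 array, 6.51 on the Plin2 array and 6.92 on the empty vector array, the same order as for Fmod. The Plin5 array was 2.63-fold lower than the empty vector (-1.39) and the Plin2 array 1.33-fold lower (-0.41). On the Plin5 array Tnmd was close to the dim level of 5.34, so the size of that difference is uncertain.

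For these 4 genes the Plin2 array lay between the Plin5 and empty vector arrays, but at different points. The Plin2 difference from the empty vector was 72.5% as large as the Plin5 difference for Kera, on the log2 scale, 41.0% for Fmod, 29.5% for Tnmd and 12.0% for Chad. Both differences share the empty vector array, so a high value on that array would enter each of them.

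Comp encodes cartilage oligomeric matrix protein, a thrombospondin that binds collagens. It stood at 7.07 on the Plin5 array and at exactly 7.56 on both the Plin2 and the empty vector array. The Plin5 array was lower by 0.49 on the log2 scale (1.40-fold). Exactly equal values on the Plin2 and empty vector arrays occurred for 30.0% of all genes compared, since the RMA probe summary can return the same value for several arrays.

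Scx encodes scleraxis, a basic helix-loop-helix transcription factor of the tendon lineage. Its level was 8.03 on the Plin5 array, 8.51 on the Plin2 array and 8.13 on the empty vector array. The Plin5 and empty vector arrays were close (-0.10, 1.07-fold lower), and 15.5% of all genes were lower than Scx in that comparison. The Plin2 array was the highest, 1.30-fold above the empty vector (0.38).

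Tnn encodes tenascin-N, a tenascin that is also found in developing bone and in the stroma of tumours. It stood at 5.00 on the Plin5 array, 8.10 on the Plin2 array and 5.24 on the empty vector array. The Plin5 and empty vector values were under the dim level, and the Plin2 value was far above it. The Plin2 array was 7.25-fold above the empty vector (2.86), the second highest difference among all genes compared, and the Plin5 array differed from the empty vector by -0.24. Tnn passed the dim level through its Plin2 value, so it had to differ between arrays once it was kept.

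Of the 7 genes, 1 (Tnn) was higher on the Plin2 array than on the empty vector array by at least 1.5-fold, and 1 (Kera) was lower. The shares of all genes were 8.84% higher and 5.80% lower, so 1 gene of 7 lower is close to the background. Tnn passed the dim level through its Plin2 value alone, so it had to be higher there once it was kept. Its place in the count of higher genes therefore carries no information. Scx was higher by at least 1.2-fold, as were 19.4% of all genes, and Fmod and Tnmd were lower by at least 1.2-fold, as were 15.5%. None of the 7 was lower by 2-fold, as 1.31% of all genes were. The median of the 7 was -0.23, against 0.00 for all genes.

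In the direct comparison, all 7 genes were lower on the Plin5 array than on the Plin2 array, with log2 differences of -0.28 (Kera) to -3.10 (Tnn) and a median of -0.69, while 40.2% of all genes were lower at any size. By at least 1.5-fold, 4 of the 7 were lower: Tnn (8.57-fold), Chad (3.27-fold), Tnmd (1.98-fold) and Fmod (1.62-fold). The share of all genes was 11.3%. Tnn and Chad were lower by at least 2-fold, as were 5.17% of all genes. Tnn differed here through a high value on the Plin2 array and Chad through a low value on the Plin5 array, as the levels above show. Tnn passed the dim level through that Plin2 value alone, so it had to be lower on the Plin5 array once it was kept. Its place in these counts therefore carries no information. Comp (-0.49), Scx (-0.48) and Kera (-0.28) were lower by at least 1.2-fold, as were 22.0% of all genes.

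**Figure D2:**
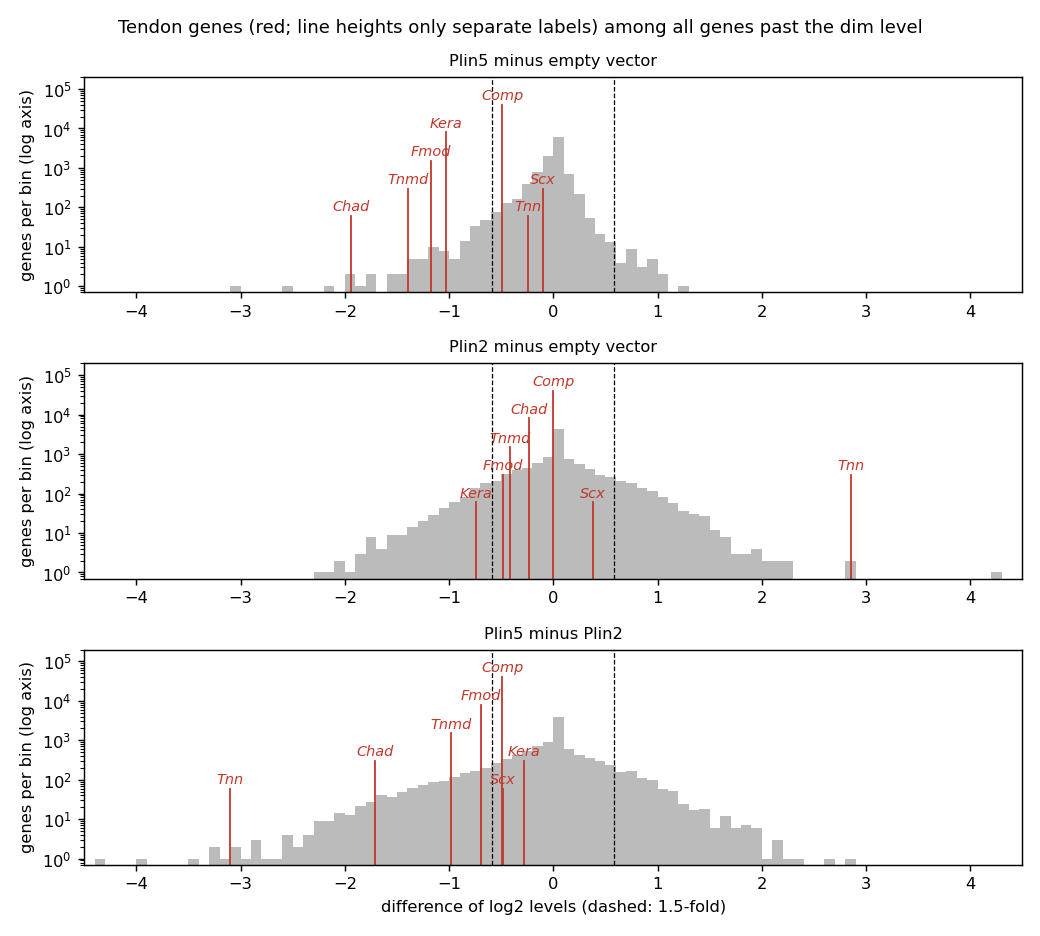
Number of genes (log axis) by difference of log2 levels for the 10879 genes above the dim level, with each tendon gene as a red line whose height serves to separate the labels; dashed lines mark 1.5-fold. Chad, Tnmd, Fmod and Kera lie in the lower tail for Plin5 minus empty vector, and Tnn lies at the upper end for Plin2 minus empty vector.

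On the Plin5 array the other leucine-rich proteoglycans differed from the empty vector by less than Chad, Fmod and Kera did. Lum, Prelp and Omd belong to the same class of leucine-rich proteoglycans as Fmod and Kera. Prelp was at 10.15 on the Plin5 array, against 10.55 for the empty vector (-0.39). Lum (-0.12) and Omd (-0.07) differed less, as did the more widely expressed Dcn (-0.20) and Bgn (-0.20). Of the 9 other leucine-rich proteoglycans above the dim level, 8 were lower on the Plin5 array at any size, but 0 by 1.5-fold, with a median of -0.11. On the Plin2 array the same list had a median of 0.06 (0.25 over its members brighter than the median of all genes), with Bgn (0.53), Aspn (0.53) and Lum (0.43) higher and Omd (-0.27) lower than on the empty vector array.

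The collagens that build tendon fibrils also differed little on the Plin5 array. Col1a1, a chain of type I collagen, stood at 12.24 on the Plin5 array, 12.60 on the Plin2 array and 12.46 on the empty vector array. Col1a2, the other chain, stood at 11.66 on the Plin5 array, 12.10 on the Plin2 array and 11.88 on the empty vector array. The Plin5 differences from the empty vector were -0.22 for Col1a1 and -0.23 for Col1a2. Such bright probe sets can be compressed on arrays, so these differences may be understated, which was not tested. Col3a1 was at 0.00 and Col14a1 at -0.09. Of the 10 collagens in the list, 6 were lower on the Plin5 array at any size and 0 by 1.5-fold (median -0.09). The largest difference was that of Col12a1, a collagen that coats fibrils, which stood at 8.39 on the Plin5 array, 9.82 on the Plin2 array and 8.83 on the empty vector array. Its difference from the empty vector was -0.44 for Plin5 and 0.99 for Plin2. It was the 1 collagen of 10 that was higher by 1.5-fold on the Plin2 array, as were 8.84% of all genes.

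**Figure D3:**
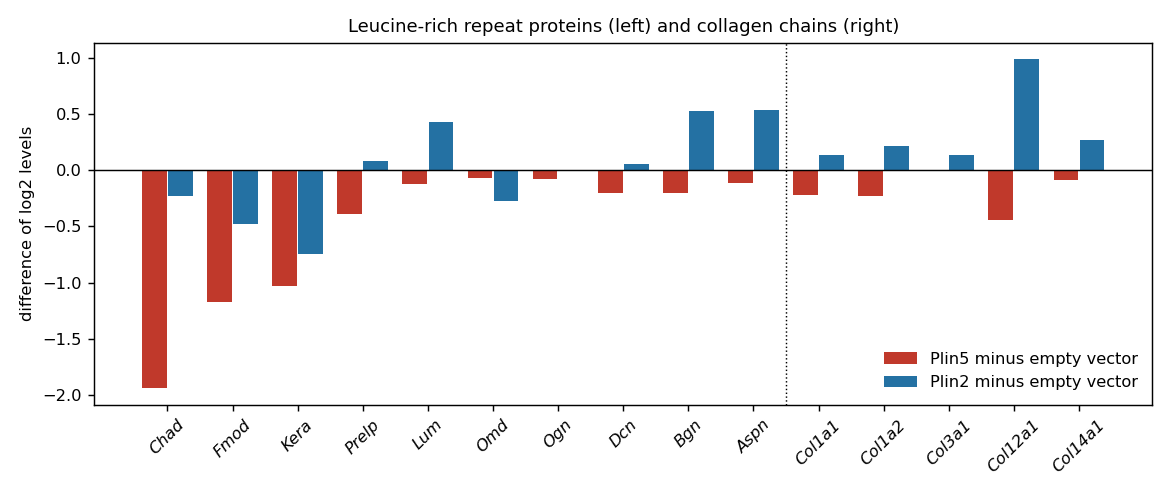
Difference of log2 levels (vertical axis) for leucine-rich repeat proteins and collagen chains, with Plin5 minus empty vector in red and Plin2 minus empty vector in blue, 1 array per group. Chad, Fmod and Kera have red bars of -1.94, -1.17 and -1.03, while the red bars of the other genes lie between -0.44 and 0.00.

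Of the thrombospondins and tenascins other than the tendon genes, Thbs1 and Tnr had a probe set. Thbs1, an activator of latent TGF-beta, stood at 9.67 on the Plin5 array, 10.76 on the Plin2 array and 9.68 on the empty vector array. It was thus 1.07 higher for Plin2 and level for Plin5 (-0.01). Tnr was dim and equal on all 3 arrays (4.36). In the list of tendon regulators and TGF-beta signals, 0 of 11 genes were lower by 1.5-fold on the Plin5 array (median 0.00). Tgfb1 was at -0.45 for Plin5 and 0.76 for Plin2, the receptor Tgfbr1 at -0.23 for Plin5 and 0.56 for Plin2, and Bmp4 at 0.13 for Plin5 and -0.48 for Plin2, all against the empty vector.

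Other genes of the tendon and its surroundings had smaller differences on the Plin5 array than Chad, Tnmd, Fmod and Kera. The list of tendon sheath and other tendon matrix genes had a median of -0.04 on the Plin5 array, with 0 of 10 genes lower by 1.5-fold, and Pcolce, an enhancer of procollagen processing, was the lowest (-0.26). Tppp3, a marker of sheath cells, stood at 10.78 on the Plin5 array, 9.90 on the Plin2 array and 10.73 on the empty vector array, and was thus lower on the Plin2 array (-0.84). The 8 measured genes listed for the myotendinous junction, where fibres attach to tendon, had a median of -0.04 for Plin5 and 0.05 for Plin2, with 0 called in either direction. Col22a1, Tln2 and Lama2 of that list were not measured. Of 10 cartilage genes above the dim level, 7 had equal values on the Plin5 and empty vector arrays, and 0 were called. Equal values on these arrays occurred for 4368 of the 10879 genes compared. Several of the 7 lay near the dim level, such as Ucma (5.66) and Sox5 (5.69). On the Plin2 array Sox6 (-0.89), which muscle fibres also express, and Cytl1 (-0.50) were lower. Muscle fibroblast markers had a median of -0.08 for Plin5 (0 of 11 lower by 1.5-fold) and 0.05 for Plin2. Fbln1 was the 1 gene called on the Plin2 array (0.88), where 8.84% of all genes were higher by 1.5-fold.

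Markers of inflammation and repair differed on the same arrays as the tendon genes. Macrophage markers had a median of -0.57 on the Plin5 array, where 6 of 14 were lower by 1.5-fold, and of 1.09 on the Plin2 array, where 13 of 14 were higher. Among all genes, 1.42% were lower by 1.5-fold on the Plin5 array and 8.84% were higher on the Plin2 array. Their summed linear level (sum of 2 to the power of each RMA level) was 8703 on the Plin5 array, 27642 on the Plin2 array and 12398 on the empty vector array, and 0 of the 14 were dim. Genes of regenerating fibres had a median of -0.47 for Plin5 (2 of 7 lower by 1.5-fold, with Mymk at -1.24) and 0.79 for Plin2 (4 of 7 higher). Their summed linear level was 5516 on the Plin5 array, 12525 on the Plin2 array and 7195 on the empty vector array. Both lists thus had medians of opposite sign on the Plin5 and Plin2 arrays. The differences of Scx (-0.10 and 0.38) and Tnn (-0.24 and 2.86) also had opposite signs, but those on the Plin5 array were small. For Tnn that difference lay between values under the dim level, so no shared pattern can be read from these signs. Chad, Fmod, Kera and Tnmd were lower than on the empty vector array on both, and Comp on the Plin5 array alone. The part of macrophages and regenerating fibres in the differences of the tendon genes was not tested.

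Myofibroblast genes, whose products are made by activated matrix-forming cells, were higher on the Plin2 array, as Tnn was. All 9 were higher there than on the empty vector array (median 0.64), 5 of them by at least 1.5-fold, including Timp1 (1.29), Cthrc1 (1.06), Ccn2 (0.77) and Lox (0.77). The share of all genes higher by that amount was 8.84%. On the Plin5 array the median was -0.17 and 0 of 9 were called. Their summed linear level was 14607 on the Plin5 array, 23139 on the Plin2 array and 15862 on the empty vector array, and their part in the Tnn difference was not tested. Muscle fibre genes had a median of 0.02 for Plin5 and -0.27 for Plin2, with a summed linear level of 159542 on the Plin5 array, 132062 on the Plin2 array and 155841 on the empty vector array. On the Plin2 array 4 of 15 were lower by 1.5-fold: Myh7 (-1.75), Myh2 (-0.98), Tnnt1 (-0.78) and Pvalb (-0.60). The share of all genes lower by that amount was 5.80%. On the Plin5 array 0 of 15 were called, with Myh7 at 0.44.

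**Figure D4:**
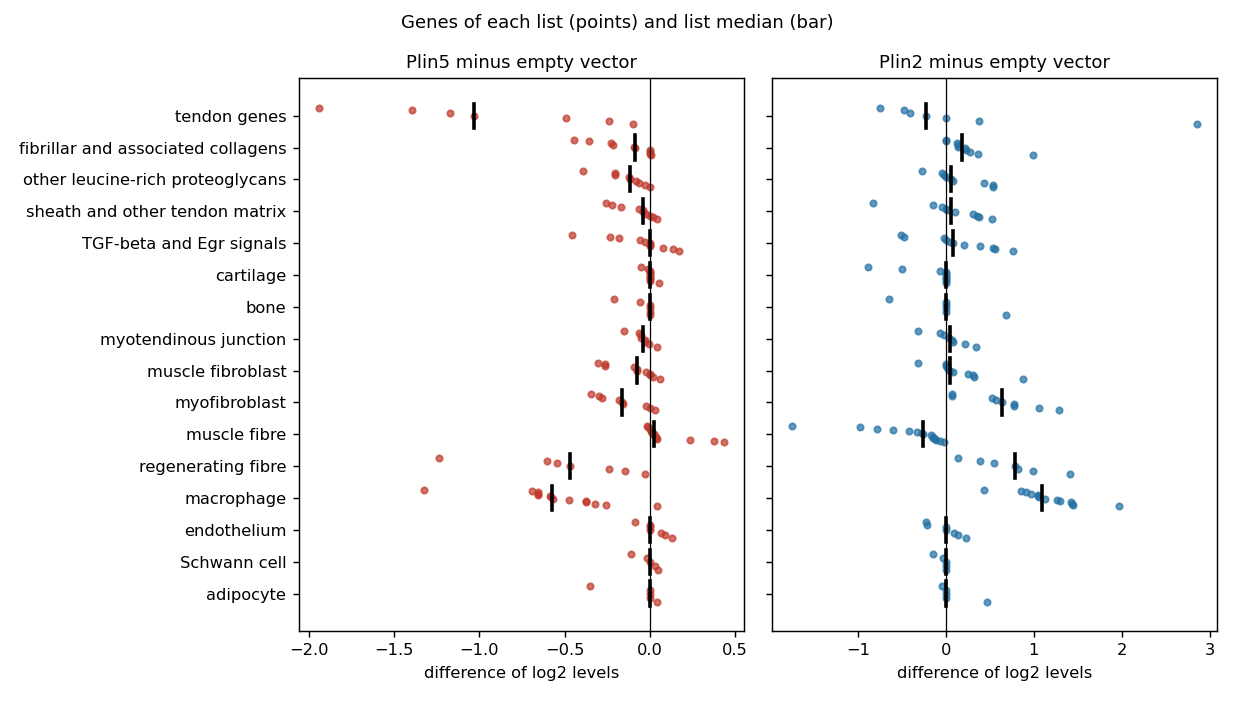
Difference of log2 levels against the empty vector array for the genes of each list above the dim level (points) and the list median (black bar), for Plin5 on the left and Plin2 on the right; the horizontal scales differ. The tendon genes, chosen on these values, have a median of -1.03 for Plin5. The lists of collagens, other leucine-rich proteoglycans, sheath, junction and fibroblast genes have medians between -0.11 and -0.04. Macrophage (-0.57), regenerating fibre (-0.47) and myofibroblast (-0.17) genes also have negative medians for Plin5.

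Each gene was placed by its Plin5 and Plin2 differences from the empty vector (3 arrays), and neighbours were ranked by distance in log2 units. Genes with placeholder symbols, and those of some receptor and small RNA families, were left out by symbol from all these rankings. How many genes lay within a given distance was not counted. Among the genes ranked, Ppef1 was the nearest to the median of the tendon genes, at a distance of 0.38. Cpxm2, a carboxypeptidase-like matrix protein, followed at 0.46. Ppef1 stood at 5.48 on the Plin5 array, 6.82 on the Plin2 array and 6.76 on the empty vector array. Cpxm2 stood at 8.55 on the Plin5 array, 8.91 on the Plin2 array and 9.12 on the empty vector array, in the order of Fmod. The 10 nearest also held Lilrc2 (0.47) and Unc13d (0.48), genes of immune cells. The rest of the 10 were Gpr165 (0.50), Crabp1 (0.51), Hmgb2 (0.53), RT1-CE16 (0.54), Apod (0.54) and Apold1 (0.54). For Chad the nearest were Ppef1 (0.72), the immunoglobulin joining chain Jchain (0.74) and the B cell receptor protein Cd72 (0.74). Tnmd had Ppef1 (0.48), Cd72 (0.64) and the chemokine receptor Xcr1 (0.70) nearest to it. Comp had close neighbours, with Cyp4b1 at 0.024, Lrrn4cl at 0.041 and Tspan32 at 0.055, as did Scx, with Pea15 at 0.003. For Tnn the nearest was Clec2dl1, 0.57 away, a dim gene on the Plin5 (4.67) and empty vector (4.87) arrays, followed by A2m (1.00) and P4ha3 (1.01), which encodes a subunit of the prolyl hydroxylase that modifies collagen.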

How the data were processed

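The authors deposited 1 table of log2 levels made with RMA, per the submitters' processing notes, which name no version. The base of the logarithm was taken from RMA and the range of the deposited values. RNA of 6 rats per group was pooled before labelling, per the labels' protocols. The genome build behind the array annotation was not stated.

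No further normalization was applied. Of 29214 probe sets, the 15310 annotated to a single symbol were used, and those with several symbols (323) or without a listed gene (13581) were left out. Where a gene had more than 1 probe set (527 of 14506 genes), the brightest by mean was taken. Genes with a mean under percentile 25 were left out of counts over all genes. Comparisons were differences of log2 values, called at 1.5-fold, without a test. Related genes came from 16 hand-written lists. The tendon genes and lists were chosen with earlier results of these data known. Named genes were the tendon genes, up to 4 genes per list with the largest difference in any comparison, fixed relatives and main collagens, and up to 10 nearest genes for the median and 3 for each tendon gene. The calling step was run on simulated data with background differences past the threshold removed and larger known differences added. That run checks the code and says nothing of error rates. RMA brings arrays to a common distribution, hides changes of total RNA and gave equal values on all arrays for 38.7% of probe sets. Alternatives covered fold threshold, dim filter, centring, normalization and probe set choice. Python 3.11.15 was used with pandas 2.3.3, numpy 2.4.6, statsmodels 0.14.6 and matplotlib 3.10.9.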

Additional observations from a re-analysis of the deposited data

How the results depend on the processing

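The differences of the 7 tendon genes moved by less than 0.1 log2 units, the limit set here in the absence of replicates, under median-centring, quantile normalization, loess correction for level and averaging of probe sets, and without a dim filter. They kept their sign except that of Comp for Plin2 against the empty vector, which was 0.00 as deposited and between -0.061 and -0.012 after centring or normalization. The median of the other leucine-rich proteoglycans for Plin2 against the empty vector was 0.25 with the dim filter at the median of all genes. Tnmd and Tnn drop out when the dim filter is set at the median of all genes. The median of the Plin5 against Plin2 comparison was then -0.49, with 2 genes lower by 1.5-fold, and 0 genes were higher for Plin2 against the empty vector. At 1.2-fold, 7 genes were lower for Plin5 against Plin2, and 3 were lower and 2 higher for Plin2 against the empty vector. At 2-fold these counts were 2 lower for Plin5 against Plin2 and 0 lower for Plin2 against the empty vector. The number lower for Plin5 against the empty vector lay between 3 and 5. With 1 array per group no array could be left out, and the single array per group sets the precision; Tnn on the Plin5 and empty vector arrays lay under the dim level, where differences between arrays are uncertain.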

Other observations

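Bone genes also differed on the Plin2 array in part. Runx2, a transcription factor of bone formation that other mesenchymal cells express as well, stood at 7.45 on the Plin5 array, 8.34 on the Plin2 array and 7.66 on the empty vector array. Alpl, tissue-nonspecific alkaline phosphatase, stood at 7.92 on the Plin5 array, 7.33 on the Plin2 array and 7.98 on the empty vector array. Of the 6 bone genes above the dim level, 4 had equal values on the Plin5 and empty vector arrays. So had 4368 of the 10879 genes compared.

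Endothelial markers had a median of 0.00 for Plin5 and for Plin2 against the empty vector, as did Schwann cell and adipocyte markers. None of the 7 endothelial, 5 Schwann cell and 5 adipocyte genes above the dim level differed by 1.5-fold from the empty vector on either array. Several of the adipocyte and Schwann cell genes lay near the dim level. On the empty vector array Cidec was at 5.55, S100b at 5.56, Plin1 at 5.94 and Prx at 6.16. A lack of difference in such genes says little of these cells. Brighter genes of these lists were Cfd (7.81) and Pmp22 (10.92) on that array.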
